A study of Mus musculus with 50 samples.

Results

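Wild-type mouse hippocampus was compared with wild-type neocortex over all probe sets of an Affymetrix oligonucleotide array, to describe which genes set the regions apart. The sample titles gave the members: 10 arrays of wild-type hippocampus and 10 of wild-type neocortex, which are 20 of the 50 arrays in the series. Each tissue was represented by 5 males and 5 females, all 8 weeks old, and the titles call the replicates biological. The other arrays come from mice deficient in S1P2 or S1P3, receptors for the signalling lipid sphingosine 1-phosphate. Their regional difference was compared with that of wild-type mice, with which it shares no array, and they also entered the filter on dim signals and the tests of genotype: 10 arrays of each tissue labelled S1P2-KO (5 males and 5 females) and 5 of each labelled S1P3-KO (2 males and 3 females). No strain, Cre driver or allele is named in the labels, and whole tissue was used throughout. S1P2-deficient mice have sporadic seizures, per the series' design text, and S1P3-deficient mice do not.

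The hippocampus and the neocortex are both cortical tissues of the forebrain, but they are built differently. In the hippocampus, granule cells of the dentate gyrus project to pyramidal cells of Ammon's horn, each class packed into a single dense sheet. The neocortex spreads its excitatory neurons over layers, in which upper-layer cells mainly connect cortical areas and deep-layer cells mainly project to other parts of the brain. Inhibitory interneurons, astrocytes, oligodendrocytes, microglia and vessels are present in both. In such whole-tissue samples, fewer cells of a type and less RNA per cell cannot be told apart.

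Regional differences were widespread and about evenly split between directions. Of 8534 probe sets bright enough to be tested, for 6350 genes, 1460 (17.1%) differed at an adjusted p below 0.05 in a linear model with sex as a covariate (limma). Of these, 772 probe sets (9.05%) were higher in hippocampus and 688 (8.06%) were lower, and the median log2 difference over all probe sets was 0.006. A change of at least 2-fold was reached by 81 called probe sets upward (0.949%, for 70 genes) and by 88 downward (1.03%, for 73 genes). All 10 hippocampus arrays lay above all 10 neocortex arrays for 164 probe sets (1.92%), and all 10 lay below for 142 (1.66%). Signals below are MAS5 values on a linear scale, differences are log2(signal + 30.7) in hippocampus minus neocortex with their SE, and n is 10 arrays a tissue. A probe set's level is not set against that of another.

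**Figure D1:**
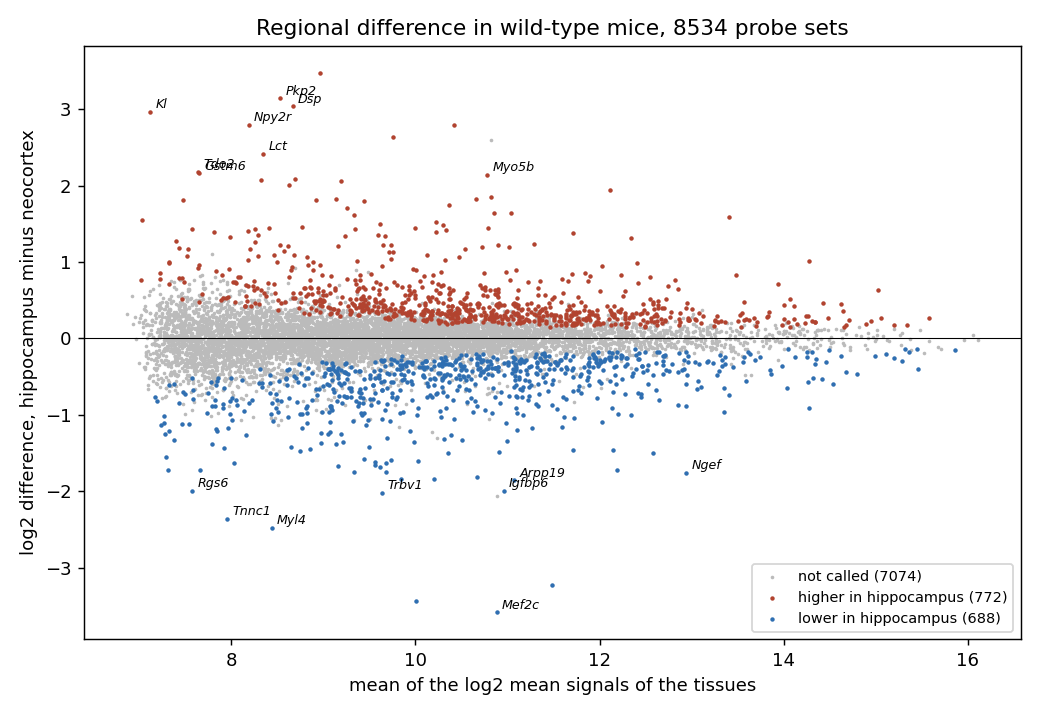
Each point is 1 of 8534 probe sets, with the mean log2 signal of the tissues on the x axis and the log2 difference, hippocampus minus neocortex, on the y axis. The 772 probe sets called higher (red) and 688 called lower (blue) lie above and below 0, with log2 differences from -3.58 to 3.47.

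The quality values of the tissues overlapped, and a few hippocampus arrays stood apart. Eif2s3y, a gene of the Y chromosome, lay at 421.9 or above in males and at 124.4 or below in females. Median signals ran from 352.85 to 408.45. The log2 ratio of 3' to 5' signal of control transcripts, which rises as RNA degrades, was 0.497 ± 0.281 in hippocampus (0.26 to 1.2) and 0.376 ± 0.053 in neocortex (0.3 to 0.48), a difference of 0.121 (two-sided permutation test, p = 0.226). Hippocampus replicate 4 had the ratio of 1.2 and replicate 3 the next highest, 0.75. These arrays and replicates 6 and 7 also read low for some neuronal probe sets, described below with Mef2c, and for some of these the neocortex arrays of the same numbers were low as well. Over the 39 gene lists described below, replicate 3 gave the lowest hippocampus level in 10 and replicate 4 in 12. Without replicates 3 and 4 of both tissues, 557 probe sets were called higher and 568 lower, and 1036 of the 1460 calls were kept in the same direction. Without replicates 3, 4, 6 and 7 the counts were 460 and 506, with 850 calls kept, and 0 calls turned round in either case. The 40 genes with the largest changes named next were called in both cases.

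The dissection was checked through tissues that border the regions. Transthyretin (Ttr), the main secreted protein of the choroid plexus, ranged widely among arrays: 27.3 to 33071 in hippocampus (median 2321) and 46.8 to 2519 in neocortex (median 184). It was not called (2.60 ± 0.95, adjusted p = 0.063), and the highest hippocampus arrays were replicates 1, 2 and 4. The mean log2 level of the choroid plexus list ran from 8.2 to 10.67 in hippocampus and from 8.28 to 8.87 in neocortex. Of its 12 tested genes, 4 were called higher (33.3%, against 9.05% of all probe sets) and 0 lower (median log2 difference 0.20). Kl, which encodes the anti-ageing protein Klotho and is strong in choroid plexus, was among them, with 172 to 1709 in hippocampus (median 430) and 14.9 to 108 in neocortex (median 21.7) (2.96 ± 0.34, adjusted p = 6.53e-07). Folr1, a folate receptor (1.26 ± 0.42, adjusted p = 0.0431), and Calml4 (1.17 ± 0.41, adjusted p = 0.0494) were called with all 20 arrays but lost the call when any of several single arrays was left out. The part of choroid plexus tissue in the rise of these genes was not tested. Of the striatal genes, 4 passed the filter and 4 did not. Penk and Ptpn5 were lower (50%, against 8.06% of all probe sets). Drd2 (log2 difference -0.05) and the brighter Pdyn probe set (-0.32) did not pass the test. A dimmer Pdyn probe set was called lower (-1.26 ± 0.27). The mean level of the striatal list ran from 9.54 to 9.96 in hippocampus and from 10.07 to 10.54 in neocortex, and its part in results such as that of Penk was not tested. None of 4 ependymal genes was called, though all 4 had positive differences (median 0.55). Levels of the ependymal list ran from 8.99 to 9.99 in hippocampus and from 8.3 to 9.36 in neocortex. Among 9 thalamic genes Prkcd was higher (11.1%, against 9.05% of all probe sets) and Ramp3 and Cacna1g lower (22.2%, against 8.06%). Ramp3 was not called without replicates 3, 4, 6 and 7. The list levels ran from 8.89 to 9.54 in hippocampus and from 9.23 to 9.59 in neocortex. None of 4 blood genes was called, with Hba-a1 at -0.25 ± 0.10, adjusted p = 0.0933. The blood list ran from 9.07 to 10.06 in hippocampus and from 9.29 to 10.24 in neocortex.

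The steepest rises in hippocampus included genes of desmosomes, a peptide receptor and markers of granule cells. Desmoplakin (Dsp) links desmosomes to intermediate filaments and is used as a marker of dentate granule cells. Its signal was 726 to 1763 in hippocampus (median 1181) and 22.0 to 406 in neocortex (median 113), so that the lowest hippocampus array lay above the highest neocortex array (3.03 ± 0.26, adjusted p = 7.9e-09). Its desmosomal partner plakophilin 2 (Pkp2) was measured by a pair of probe sets. The brighter gave 1709 to 2787 in hippocampus (median 2093) and 129 to 457 in neocortex (median 354) (2.63 ± 0.14, adjusted p = 2.38e-12), and the other gave 947 to 1456 in hippocampus (median 1131) and 35.6 to 236 in neocortex (median 118) (3.14 ± 0.23, adjusted p = 3.02e-10). The arrays of the tissues did not overlap for either. The neuropeptide Y receptor Npy2r, a presynaptic receptor that dampens transmitter release, was also divided, with 3012 to 4172 in hippocampus (median 3736) and 340 to 764 in neocortex (median 504) (2.79 ± 0.11, adjusted p = 6.15e-15), and its second probe set also differed by 2.79 ± 0.23. The lactase gene Lct, another granule cell marker in mouse, averaged 813 ± 158 in hippocampus and 130.2 ± 45.2 in neocortex (2.41 ± 0.16, adjusted p = 8.78e-11).

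The unconventional myosin Myo5b, which carries receptor vesicles into dendritic spines, averaged 3756 ± 661 in hippocampus and 826 ± 139.9 in neocortex (2.14 ± 0.10, adjusted p = 6e-13), and its dimmer probe set gave 0.60 ± 0.19. Doc2b, a calcium sensor of vesicle release (2.09 ± 0.24), and Rasd1, a small G protein induced by glucocorticoids (2.06 ± 0.15), likewise showed no overlap between tissues. Neuronatin (Nnat), an imprinted gene for a membrane proteolipid, read 5825 to 11233 in hippocampus (median 8536) and 1504 to 3351 in neocortex (median 2134) (1.94 ± 0.12, adjusted p = 1.5e-11). Klk8, a secreted protease that acts on the synaptic matrix, read 624 to 1042 in hippocampus (median 797) and 61.4 to 302 in neocortex (median 192) (2.001 ± 0.19, adjusted p = 2.8e-08). Further genes with fully separated arrays were Gstm6, a glutathione transferase (2.16 ± 0.21), Mycl, a relative of Myc (1.82 ± 0.24), the matrix protein tenascin X (Tnxb, 1.804 ± 0.215) and Tdo2, which starts the breakdown of tryptophan (2.18 ± 0.20). The brighter Tnxb probe set gave 1.43 ± 0.21. A second and dimmer Tdo2 probe set was not called (0.12 ± 0.27, adjusted p = 0.822). The largest rise of all, 3.47 ± 0.24, belonged to a probe set that has no gene name here and was picked after its values were seen: 1146 to 1968 in hippocampus (median 1755) and 37.0 to 383 in neocortex (median 127).

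**Figure D2:**
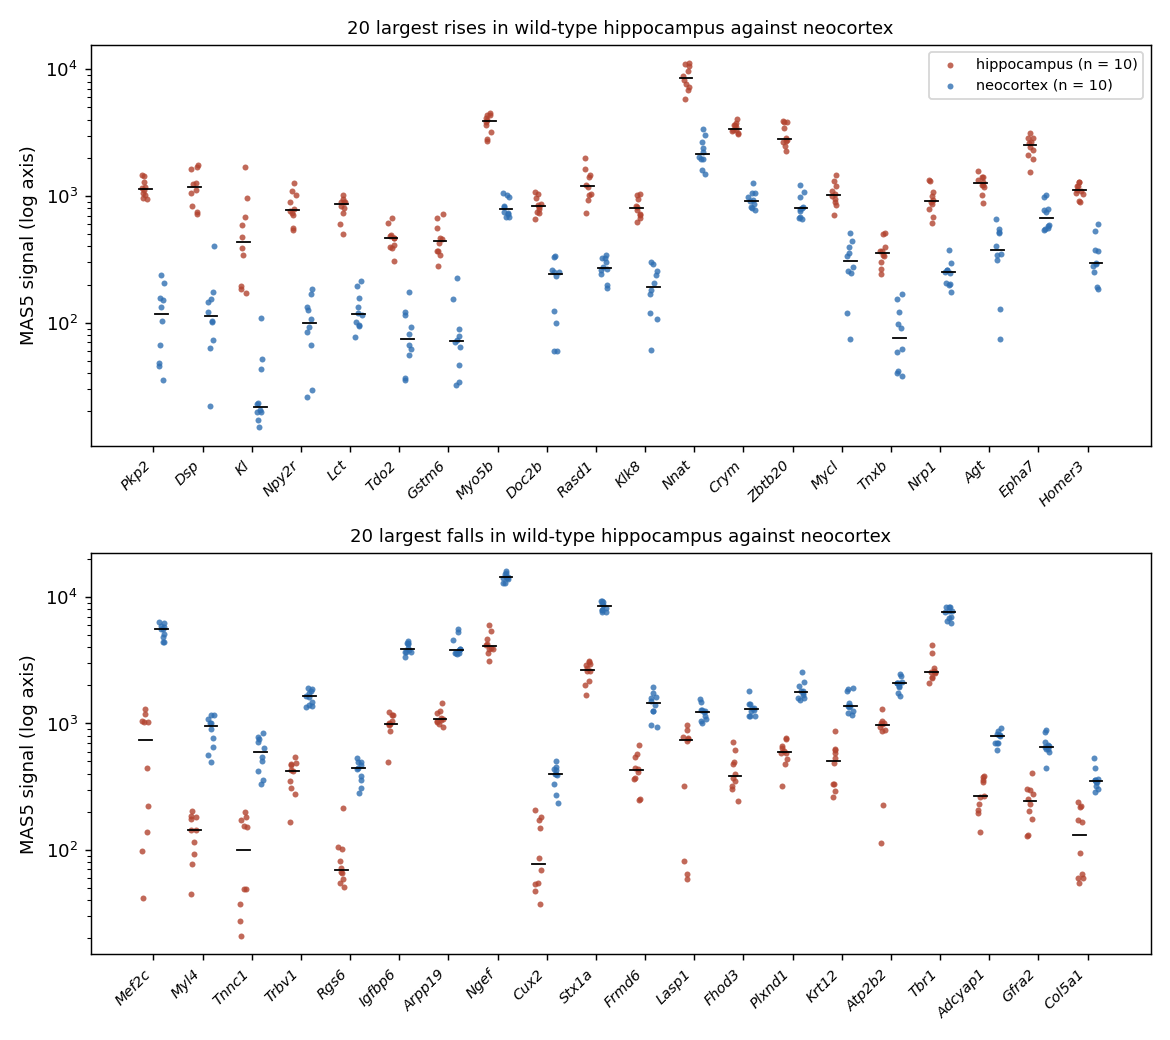
MAS5 signal on a log axis of the 20 genes with the largest rise and the 20 with the largest fall among called genes whose arrays do not overlap, each by its probe set with the largest change. Points are the 10 hippocampus arrays (red, left) and the 10 neocortex arrays (blue, right) of each gene, and black lines are medians. No red point of a gene lies among its blue points.

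The steepest falls included transcription factors, a synaptic protein and genes better known from muscle. Mef2c, a transcription factor of cortical neurons, fell most and is described below with the upper-layer genes. Myl4, the atrial light chain of myosin, read 44.9 to 203 in hippocampus (median 143) and 496 to 1177 in neocortex (median 951) on 1 probe set (-2.48 ± 0.21, adjusted p = 4.05e-09) and differed by -1.36 ± 0.21 on the other. Troponin C of slow muscle (Tnnc1), a calcium-binding protein also known from deep cortical layers, read 20.7 to 198 in hippocampus (median 99.7) and 329.5 to 846 in neocortex (median 592) (-2.36 ± 0.27, adjusted p = 6.78e-07). Syntaxin 1A (Stx1a), a core protein of the machinery that fuses synaptic vesicles, averaged 2584 ± 474 in hippocampus and 8484 ± 698 in neocortex (-1.72 ± 0.09, adjusted p = 6.63e-13). Ngef, an exchange factor through which ephrin receptors act on the cytoskeleton, averaged 4308 ± 867 in hippocampus and 14410 ± 1035 in neocortex (-1.76 ± 0.09, adjusted p = 7.58e-13). Igfbp6, which binds insulin-like growth factors, averaged 996 ± 207 in hippocampus and 3978 ± 383 in neocortex (-1.99 ± 0.11, adjusted p = 1.79e-12). Arpp19, a phosphatase inhibitor regulated by phosphorylation, averaged 1121 ± 154 in hippocampus and 4153 ± 769 in neocortex (-1.85 ± 0.09, adjusted p = 6.63e-13). For each of these genes all hippocampus arrays lay below all neocortex arrays.

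Further falls with separated arrays were seen for signalling and structural genes. They included Rgs6, a brake on G-protein signalling (-1.995 ± 0.19), the semaphorin receptor Plxnd1 (-1.61 ± 0.13), the neurturin receptor Gfra2 (-1.42 ± 0.15) and the calcium pump Atp2b2 (-1.49 ± 0.28). Atp2b2 was still called without replicates 3, 4, 6 and 7, but differed by less (-1.008). The brighter Gfra2 probe set gave -1.001 ± 0.11. Fhod3, a formin that assembles actin (-1.61 ± 0.15), Frmd6, which acts in the Hippo pathway (-1.68 ± 0.17) and the keratin Krt12 (-1.59 ± 0.18) were also lower. Collagen Col5a1 differed by -1.38 ± 0.23 on 1 probe set with separated arrays and by -0.48 ± 0.09 on its brighter one, where arrays overlapped. A probe set assigned to Trbv1, a variable segment of the T-cell receptor, read 165 to 542 in hippocampus (median 423) and 1352 to 1904 in neocortex (median 1642) (-2.02 ± 0.15, adjusted p = 7.34e-10). The actin-binding protein Lasp1 differed by -1.63 on 1 probe set, with a subset of low hippocampus arrays, and by -0.61 on its brighter one, where all hippocampus arrays lay between 2847 and 3411 and all neocortex arrays between 4267 and 5432.

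Markers of the principal cells of the hippocampus were higher there more often than probe sets at large. All gene lists were chosen with earlier results of these data known, so a list's share is a description and not a test. Dsp, Lct, Tdo2, Klk8, Zbtb20 and Homer3, members of these lists, are also among the 20 largest rises with separated arrays. Of 11 dentate granule cell genes on the array 8 were tested, of which 4 were called higher (50%, against 9.05% of all probe sets) and 0 lower, with a median log2 difference of 0.58. The called genes were Dsp, Lct, Tdo2 and Il1r1, the interleukin-1 receptor (254 to 416 in hippocampus (median 319) and 109.6 to 236 in neocortex (median 177)). The homeobox gene Prox1, the defining factor of granule cells, did not pass the filter on dim signals. Lct and Tdo2 averaged 130.2 and 84.43 in neocortex, under the filter's signal of 132.6, and so passed it through hippocampus. The share of 50% is thus drawn from members that this filter favours. Calbindin (Calb1), a calcium buffer of granule cells that cortical neurons also hold, averaged 2643 ± 448 in hippocampus and 2846 ± 279 in neocortex and was not called (-0.12 ± 0.06, adjusted p = 0.182). Of 13 genes of Ammon's horn pyramidal cells 10 were tested; 7 were called higher (70%) and 1 lower (10%), with a median of 0.83. The mean log2 level of this list ran from 10.69 to 10.93 on hippocampus arrays and from 9.91 to 10.11 on neocortex arrays, with no overlap.

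Zbtb20, a transcription repressor needed for the identity of hippocampal pyramidal cells in mouse, had 2247 to 3938 in hippocampus (median 2828) and 655 to 1211 in neocortex (median 803) (1.82 ± 0.12, adjusted p = 6.71e-11). Homer3, a scaffold of metabotropic glutamate receptors, had 896 to 1298 in hippocampus (median 1108) and 186 to 606 in neocortex (median 295) (1.70 ± 0.15, adjusted p = 1.11e-08). For both, all hippocampus arrays lay above all neocortex arrays. Man1a, an enzyme that trims N-glycans (1.34 ± 0.12), Rgs14, a limiter of plasticity in field CA2 (0.83 ± 0.09), and Wfs1, a membrane protein of the endoplasmic reticulum enriched in field CA1 (0.75 ± 0.08), were higher as well, as was Pou3f1 (log2 difference 0.84). The receptor tyrosine kinase Tyro3 went the other way, at 3344 ± 378 in hippocampus and 6619 ± 525 in neocortex (-0.98 ± 0.06, adjusted p = 1.22e-11).

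Upper-layer genes of the neocortex were called in 1 direction only, lower in hippocampus. All 10 on the array were tested; 6 were called lower (60%, against 8.06% of all probe sets) and 0 higher, and the median log2 difference was -0.90. Cux2, a homeobox gene of upper-layer neurons, read 37.2 to 205 in hippocampus (median 77.2) and 233 to 505 in neocortex (median 398) (-1.72 ± 0.24, adjusted p = 1.04e-05), and its relative Cux1 averaged 1128 ± 131 in hippocampus and 2016 ± 100 in neocortex (-0.83 ± 0.06, adjusted p = 6.67e-10). Neither gene's arrays overlapped. Rasgrf2, a Ras activator of the same layers (-1.24 ± 0.25), the nuclear receptor Rora (-0.82 ± 0.12) and the growth factor Kitl (-0.67 ± 0.09) were called too. The factors Pou3f2 (log2 difference -0.98) and Pou3f3 (-0.96) had negative values but did not pass the test. This list too was chosen with earlier results known, and its members Mef2c and Cux2 are among the 20 largest falls with separated arrays. Cux2 and Rasgrf2 averaged 105.7 and 99.64 in hippocampus, under the filter's signal of 132.6, and so passed it through neocortex.

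Mef2c illustrates how the size of a change depended on the probe set and the array. Its brightest probe set read 144 to 2017 in hippocampus (median 1212) and 5748 to 8471 in neocortex (median 7678), a difference of -3.22 ± 0.41, adjusted p = 2.45e-06. On hippocampus replicates 3, 4, 6 and 7 it read only 144 to 373, against 772 to 2017 on the other 6 hippocampus arrays. Another probe set for the same gene lacked this split: it read 410.3 to 822 in hippocampus (median 618) and 1839.7 to 2497 in neocortex (median 2318), and replicates 3, 4, 6 and 7 lay at 590 to 822, not below the others. It gave -1.84 ± 0.11, adjusted p = 8.09e-12, so that the fall was seen on every probe set while its size ran from -1.84 to -3.58. The potassium channel gene Kcna1, picked after its values were seen, was split as well: 43.4 to 56.2 on those 4 arrays, against 1072 to 3546 on the other 6, with 999 to 3783 in neocortex. It was not called (-2.06 ± 0.72, adjusted p = 0.0503). Neocortex arrays with these numbers overlapped the other neocortex arrays for both. The AMPA receptor gene Gria1 read 1874 to 3075 on those 4 hippocampus arrays and 3985 to 9897 on the other 6 with its brighter probe set, and 2824 to 3618 and 3757 to 4641 with the other. For the brighter Gria1 probe set the neocortex arrays split by the same numbers, at 1809.9 to 2215.8 on replicates 3, 4, 6 and 7 and 2268.6 to 3607.2 on the others. The cause of the low signals was not tested. Of these 4 arrays, only replicates 3 and 4 had the high 3' to 5' ratios, and 3 and 4 are male while 6 and 7 are female.

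**Figure D3:**
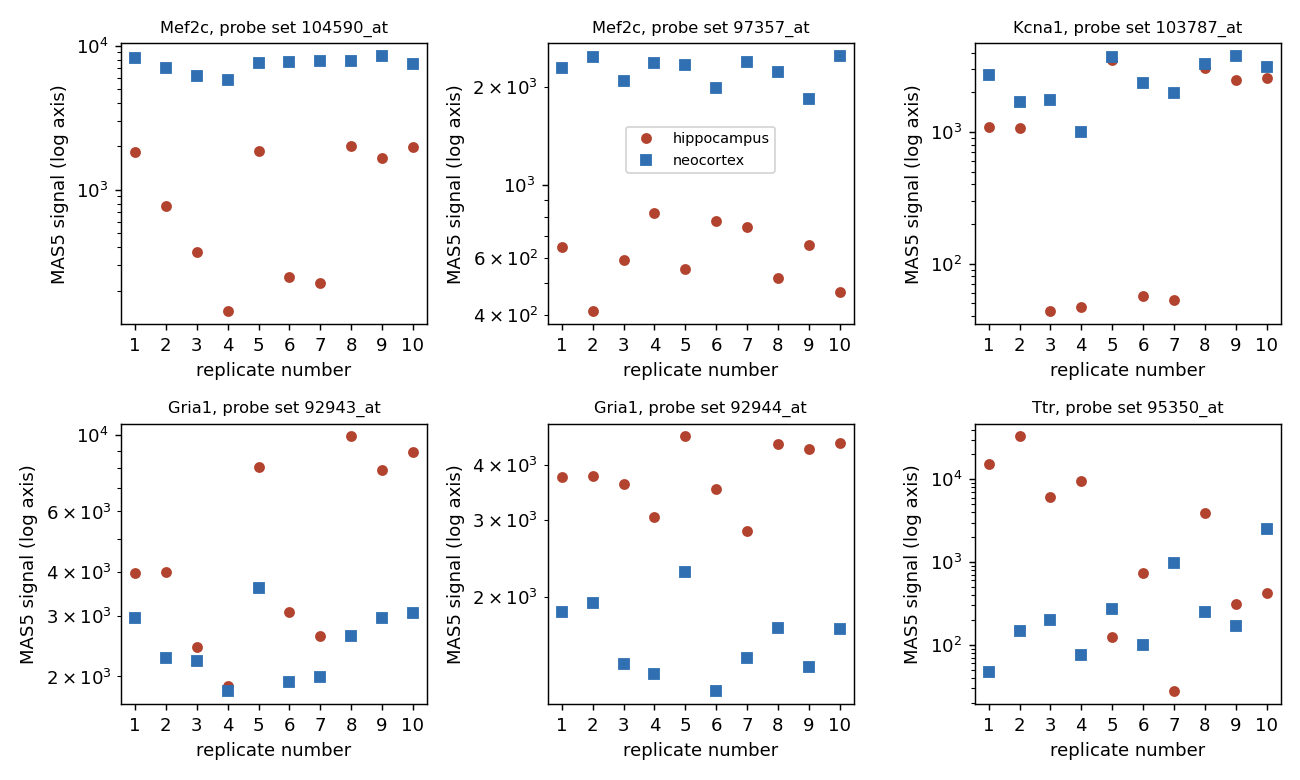
MAS5 signal on a log axis for each of the 10 hippocampus arrays (red circles) and 10 neocortex arrays (blue squares), by replicate number, for 6 probe sets. Hippocampus replicates 3, 4, 6 and 7 are low for the brightest Mef2c probe set and for Kcna1, but not for the other Mef2c probe set.

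Deep-layer genes went both ways. Of 16 on the array 14 were tested. Called higher were 4 (28.6%, against 9.05% of all probe sets) and lower 5 (35.7%, against 8.06%), with a median of -0.02. Tbr1, the T-box factor of early-born deep-layer neurons, averaged 2746 ± 658 in hippocampus and 7481 ± 804 in neocortex (-1.46 ± 0.10, adjusted p = 1.75e-10). Ccn2, a matrix-associated protein of the deepest neocortical neurons (-1.06 ± 0.14), the regulator Id2 (log2 difference -0.60) and Rprm, which arrests the cell cycle (-0.72 ± 0.13), were lower beside Tnnc1. Crym, a binding protein for thyroid hormone found in deep layers and also in field CA1, was higher, with 3105 to 4017 in hippocampus (median 3394) and 776 to 1262 in neocortex (median 914) (1.85 ± 0.08, adjusted p = 4.72e-14). Hsd11b1, which regenerates active glucocorticoid (0.70 ± 0.10), the natriuretic peptide receptor Npr3 (0.59 ± 0.14) and Parm1 (0.52 ± 0.08) were higher too. Fezf2, which specifies neurons that project below the cortex, was not called (log2 difference 0.17).

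Several interneuron genes were lower, while the enzyme that defines the class was not called. Of 24 genes on the array 22 were tested. Called lower were 7 (31.8%, against 8.06% of all probe sets) and higher 1 (4.55%, against 9.05%), with a median of -0.18. Gad1, which makes the transmitter GABA and marks interneurons at large, averaged 7924 ± 853 in hippocampus and 7905 ± 505 in neocortex, a difference of -0.002 ± 0.06, adjusted p = 0.99. Somatostatin (Sst) averaged 12610 ± 1225 in hippocampus and 11400 ± 1198 in neocortex and was not called (0.15 ± 0.07, adjusted p = 0.138). Neuropeptide Y (Npy) averaged 3279 ± 572 in hippocampus and 6157 ± 746 in neocortex (-0.91 ± 0.07, adjusted p = 2.28e-09), with no overlap. Neurokinin B (Tac2, -0.97 ± 0.18), vasoactive intestinal peptide (Vip, -0.51 ± 0.15) and parvalbumin (Pvalb, -0.47 ± 0.08), a calcium buffer of fast-spiking cells, were lower as well. Calretinin (Calb2) was higher, with 1190.3 to 2016 in hippocampus (median 1691) and 663 to 836 in neocortex (median 764) (1.08 ± 0.09, adjusted p = 5.45e-09). Calb2 is also a marker of newborn granule cells and of mossy cells, so it does not stand for interneurons alone.

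Astrocyte and myelin genes leaned to hippocampus by small amounts. Of 24 tested astrocyte genes 10 were higher (41.7%, against 9.05% of all probe sets) and 1 lower (4.17%, against 8.06%). Their median was 0.15. Angiotensinogen (Agt), the precursor of angiotensin, read 882 to 1567 in hippocampus (median 1259) and 74.3 to 656 in neocortex (median 376) (1.80 ± 0.23, adjusted p = 2.3e-06). Glial fibrillary acidic protein (Gfap), the intermediate filament of astrocytes, read 2099.6 to 3263 in hippocampus (median 2379) and 658 to 1368 in neocortex (median 1198) (1.19 ± 0.11, adjusted p = 1.97e-08), and its dimmer probe set gave 0.52 ± 0.12. The remaining called members rose by 0.33 to 0.54 on the log2 scale, among them the lipid-binding protein Fabp7 (0.54 ± 0.12), clusterin (Clu, 0.34 ± 0.06) and the gap-junction protein Gja1 (0.33 ± 0.06). Dio2, which activates thyroid hormone, was lower, at 2222 ± 180.2 in hippocampus and 3333 ± 529 in neocortex (-0.57 ± 0.07, adjusted p = 4.31e-06). Aqp4 (log2 difference -0.16) and Slc1a2 (0.19), water channel and glutamate transporter of all astrocytes, were not called. Of 18 tested oligodendrocyte genes 6 were higher (33.3%, against 9.05% of all probe sets) and 0 lower, with a median of 0.14. Mbp, a main myelin protein, averaged 17920 ± 1147 in hippocampus and 14990 ± 1111 in neocortex (0.26 ± 0.04). Mag (0.07) and Mog (0.03), also myelin proteins, were not called. Without replicates 3, 4, 6 and 7, 3 of the 6 were still called.

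**Figure D4:**
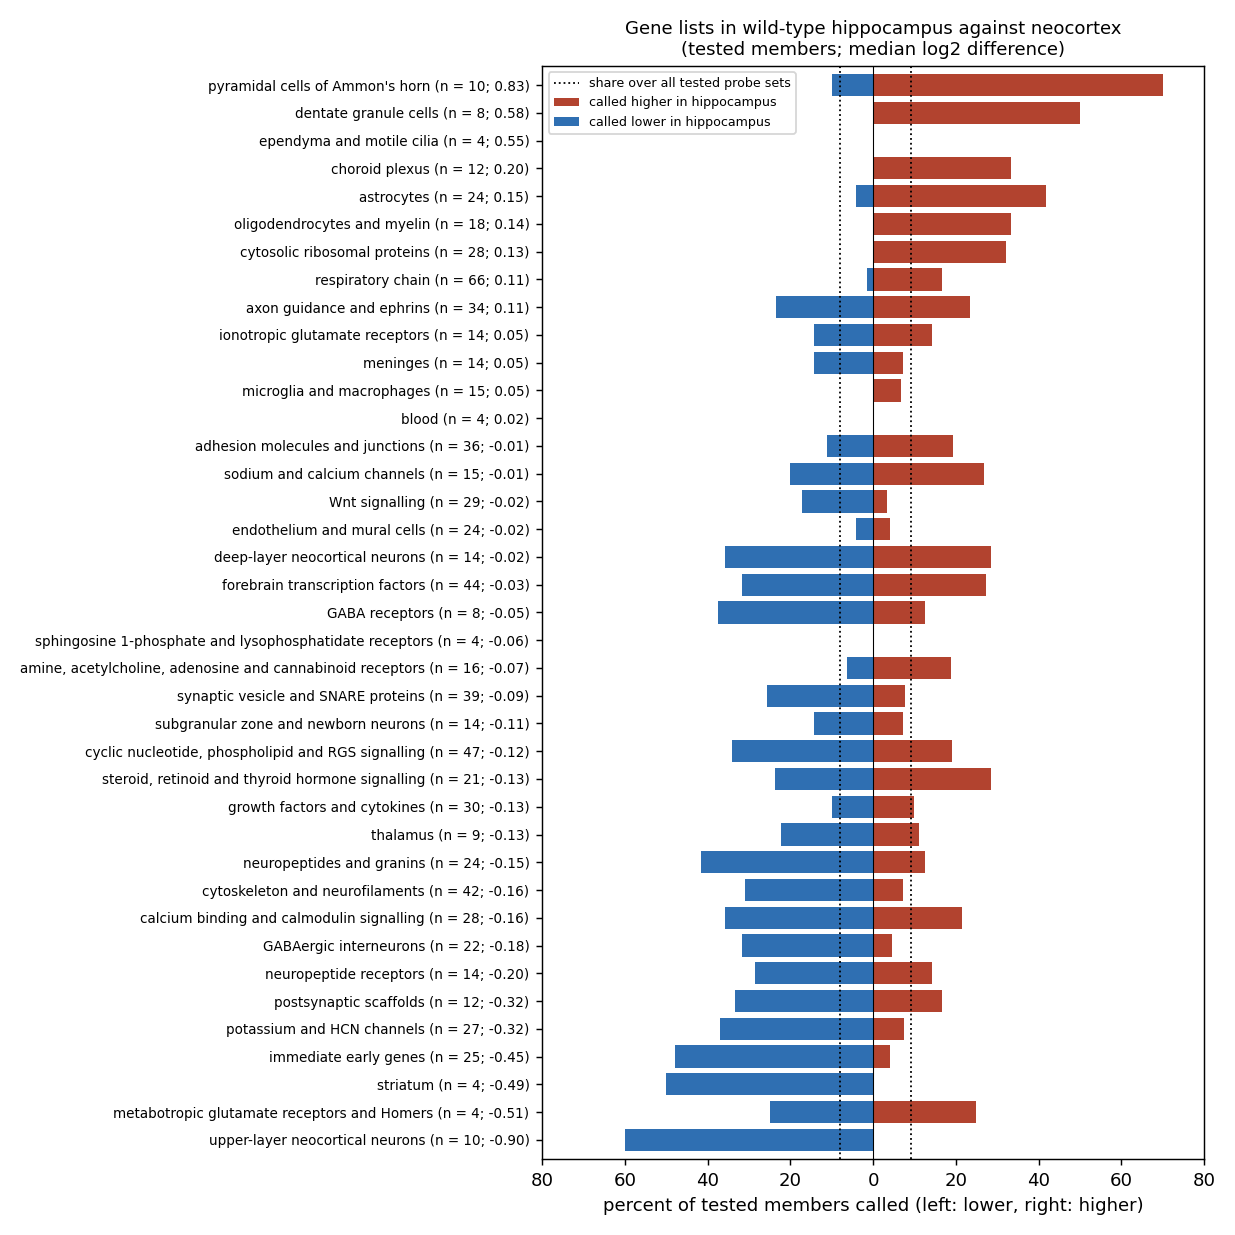
Share of the tested members of 39 gene lists called higher (red, right) or lower (blue, left) in hippocampus, with the number tested and the median log2 difference beside each name. Dotted lines mark the shares over all tested probe sets, 9.05% higher and 8.06% lower; lists of principal cells of the hippocampus lie at the top and upper-layer neurons at the bottom.

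Genes of microglia, vessels and newborn cells were called at shares near or below those of all probe sets (9.05% higher, 8.06% lower). The exception was 2 lower genes of newborn cells. Of 15 tested microglial genes 1 was called higher (6.67%; Ly86, 0.59 ± 0.17, adjusted p = 0.0163; not called without replicates 3, 4, 6 and 7), with a median of 0.05, and Cx3cr1 (-0.17) and Csf1r (-0.06) were not. Of 24 vascular genes 1 was called each way (4.17%): the adrenomedullin co-receptor Ramp2 was higher (0.68 ± 0.08, adjusted p = 3.19e-07) and endoglin (Eng) lower (-0.38 ± 0.07, adjusted p = 0.000376). Endoglin gave 0.02 in S1P2-KO and -0.04 in S1P3-KO arrays, where it was not called. Of 14 genes of the subgranular zone and of newborn neurons, 1 was higher (7.14%), the Calb2 described above, and 2 were lower (14.3%): stathmin (Stmn1), which destabilises microtubules, averaged 14380 ± 984 in hippocampus and 27130 ± 1585 in neocortex (-0.92 ± 0.05, adjusted p = 8.83e-13), and doublecortin (Dcx), a microtubule protein of migrating neurons, was lower by a small amount (-0.42 ± 0.11, adjusted p = 0.00838) and lost the call without replicates 3, 4, 6 and 7. Stmn1 is also abundant in mature neurons. Of 14 meningeal genes, decorin (Dcn), a small matrix proteoglycan, was higher, with 2306 to 4581 in hippocampus (median 3122) and 622 to 1326 in neocortex (median 1074) (1.64 ± 0.14, adjusted p = 3.29e-09), while Ptgds, which makes prostaglandin D2 and is bright in meninges and myelin, was lower (-0.47 ± 0.07). The collagens Col1a1 (0.17) and Col1a2 (-0.08), defining genes of meningeal fibroblasts, were not called.

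Transcription factors of the forebrain divided between the regions. Of 44 tested, 12 were called higher (27.3%, against 9.05% of all probe sets) and 14 lower (31.8%, against 8.06%), with a median of -0.03. Beside Zbtb20, the LIM-only protein Lmo1 averaged 2038 ± 214 in hippocampus and 702 ± 162 in neocortex (1.52 ± 0.10, adjusted p = 1.39e-10). The cofactor Zfpm2 (1.40 ± 0.26) and Neurod6, a helix-loop-helix factor of excitatory neurons (1.35 ± 0.11, adjusted p = 2.17e-09), were higher with separated arrays, and the related Neurod2 differed by 0.56 ± 0.12. Lower factors beside Mef2c, Cux2 and Tbr1 included Foxp1 (-1.03 ± 0.17), the chromatin organiser Satb1 (-0.76 ± 0.09) and Lmo4 (-0.72 ± 0.14). Lmo1 and Lmo4, members of the same family, thus had opposite differences. The orphan receptors Nr2f2 (0.58 ± 0.11, adjusted p = 0.00036) and Nr2f1 (log2 difference -0.38), close relatives that pattern the cortex in development, also differed in opposite directions.

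Receptor genes for glutamate and GABA changed in both directions. Of 14 tested ionotropic glutamate receptor genes 2 were higher (14.3%) and 2 lower (14.3%), with a median of 0.05. Over all probe sets the shares were 9.05% and 8.06%. Cnih2, an auxiliary subunit that slows the closing of AMPA receptors, averaged 8167 ± 1121 in hippocampus and 3274 ± 414 in neocortex (1.31 ± 0.07, adjusted p = 6.71e-13). Its counterpart Cacng2 (stargazin), which brings AMPA receptors to the synapse, averaged 1158 ± 442 in hippocampus and 2149 ± 169.9 in neocortex (-0.97 ± 0.16, adjusted p = 0.000106). The pore subunit Gria1 was higher on both probe sets, 1.23 ± 0.11, adjusted p = 9.48e-09 for the one with separated arrays and 0.85 ± 0.26, adjusted p = 0.0242 for the brighter one. Of 4 metabotropic receptor and Homer genes 1, Homer3, was higher (25%) and 1 lower (25%). The NMDA receptor subunits Grin2a (-0.23) and Grin2b (-0.42) had negative values but did not pass the test. Of 8 GABA receptor genes 1 was higher (12.5%) and 3 lower (37.5%). Gabrb1 averaged 9260 ± 1222 in hippocampus and 5929 ± 817 in neocortex (0.64 ± 0.08, adjusted p = 2.13e-06). Gabrd, the subunit of extrasynaptic receptors that granule cells of the dentate gyrus are known for, was lower, with 187 to 502 in hippocampus (median 295) and 616 to 961 in neocortex (median 758) (-1.24 ± 0.15, adjusted p = 1.45e-06), and Gabra3 differed by -1.20 ± 0.30. Gabrb2 (-1.17 ± 0.27) was not called without replicates 3, 4, 6 and 7.

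Among 16 tested receptors for amines, acetylcholine, adenosine and cannabinoids, 3 were higher (18.8%, against 9.05% of all probe sets) and 1 lower (6.25%, against 8.06%). The serotonin receptor Htr5b read 351 to 752 in hippocampus (median 521) and 92.0 to 334 in neocortex (median 235) (1.10 ± 0.17, adjusted p = 5.47e-05), with no overlap. The adrenergic receptors divided: the inhibitory Adra2c averaged 1409 ± 245 in hippocampus and 949.6 ± 119 in neocortex (0.55 ± 0.09, adjusted p = 7.51e-05), and Adra1b averaged 164 ± 66.8 in hippocampus and 314 ± 62.9 in neocortex (-0.88 ± 0.19, adjusted p = 0.00152). Htr1a, an inhibitory serotonin receptor, was called with all arrays (0.44 ± 0.15, adjusted p = 0.043) but lost the call when any of several single arrays was left out. Cnr1, the main cannabinoid receptor of neurons, did not pass the filter with its probe sets.

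Neuropeptide genes were called lower more often than higher. There were 24 tested genes of peptides, granins and their processing. Called lower were 10 (41.7%, against 8.06% of all probe sets) and higher 3 (12.5%, against 9.05%), with a median of -0.15. The peptide PACAP (Adcyap1) read 138 to 381 in hippocampus (median 265) and 615 to 920.2 in neocortex (median 798) (-1.44 ± 0.14, adjusted p = 3.86e-08). Proenkephalin (Penk), the source of opioid peptides and also a marker of striatum, read 1969 to 2475 in hippocampus (median 2113) and 2750.1 to 7887 in neocortex (median 4255) (-1.02 ± 0.12, adjusted p = 8.91e-07). The convertase Pcsk1, which cuts peptide precursors, differed by -0.80 ± 0.13. For these 3 genes, as for Npy and Tac2, all hippocampus arrays lay below all neocortex arrays. The receptors were called in both directions. Of 14 tested, 2 were higher (14.3%, against 9.05% of all probe sets) and 4 lower (28.6%, against 8.06%). A further 13 did not pass the filter. Npy2r rose while Npy itself was lower. The cholecystokinin receptor Cckbr averaged 1279 ± 215 in hippocampus and 3249 ± 316 in neocortex (-1.34 ± 0.08, adjusted p = 3.65e-11), and the receptor for corticotropin-releasing hormone, Crhr1, averaged 582 ± 172 in hippocampus and 1235 ± 130.3 in neocortex (-1.08 ± 0.12, adjusted p = 5.74e-07). Cholecystokinin itself (Cck), a peptide of interneurons and pyramidal cells, differed little although it was called (-0.15 ± 0.05, adjusted p = 0.0301).

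Growth factor genes changed singly, with 3 of 30 higher (10%) and 3 lower (10%). These shares were near those of all probe sets, 9.05% and 8.06%. The cytokine Il16, which neurons make in a form of their own, averaged 509 ± 84.1 in hippocampus and 194 ± 83.1 in neocortex (1.35 ± 0.20, adjusted p = 2.34e-05). Tgfb2, a transforming growth factor, averaged 425 ± 157 in hippocampus and 151 ± 59.9 in neocortex (1.33 ± 0.22, adjusted p = 9.56e-05). Fractalkine (Cx3cl1), by which neurons signal to microglia, averaged 19390 ± 1294 in hippocampus and 29180 ± 1800 in neocortex (-0.59 ± 0.05, adjusted p = 1.03e-09). Bdnf, a neurotrophin of both regions, was not called (log2 difference -0.14).

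Potassium channel genes were called lower more often than higher. Of 27 tested, 10 were called lower (37%, against 8.06% of all probe sets) and 2 higher (7.41%, against 9.05%), with a median of -0.32. The mean log2 level of the list ran from 8.76 to 9.74 in hippocampus and from 9.69 to 10 in neocortex. Without replicates 3, 4, 6 and 7, 6 were called lower and 1 higher. Kcnh1 read 20.9 to 325 in hippocampus (median 119) and 126 to 737 in neocortex (median 491) (-1.63 ± 0.38, adjusted p = 0.00346). Kcnj11, the pore of ATP-sensitive channels, differed by -1.09 ± 0.22, and Kcna2, a channel of axons, by -0.69 ± 0.16. Kcnj9, a channel opened by G proteins, fell on 1 probe set, with means of 884 in hippocampus and 1715 in neocortex (-0.95 ± 0.13, adjusted p = 8.13e-06). Its other probe set, with means of 1376 and 1006, had the opposite sign and was not called (0.38 ± 0.15, adjusted p = 0.0753). The direction for Kcnj9 thus depended on the probe set. The calcium-activated channel Kcnma1 (-1.15 ± 0.32, adjusted p = 0.0126) was another gene with low hippocampus replicates 3, 4, 6 and 7, at 626 to 1065 against 2137 to 4148 on the others, and without them it was not called. Kcnd2, which carries the A-type current of dendrites, averaged 947 ± 193 in hippocampus and 589 ± 148 in neocortex (0.66 ± 0.13, adjusted p = 0.000619; not called without replicates 3, 4, 6 and 7), and the subunit Kcnab2 averaged 8056 ± 749 in hippocampus and 5651 ± 819.5 in neocortex (0.52 ± 0.08, adjusted p = 3.26e-05).

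Of 15 sodium and calcium channel genes 4 were higher (26.7%, against 9.05% of all probe sets) and 3 lower (20%, against 8.06%). The ryanodine receptor Ryr3, a calcium release channel of internal stores, averaged 1955 ± 193 in hippocampus and 727 ± 107 in neocortex (1.40 ± 0.08, adjusted p = 1e-11), with no overlap. Cacna1c, the L-type calcium channel, was higher by less (0.36 ± 0.07) and was not called without replicates 3, 4, 6 and 7. The T-type channel Cacna1g (-0.77 ± 0.18), the auxiliary subunit Cacna2d1 (-0.84 ± 0.21) and the sodium channel Scn1a (-0.59 ± 0.07), best known from fast-spiking interneurons, were lower.

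Genes of calcium and cyclic nucleotide signalling were called in both directions. Hippocalcin (Hpca), a neuronal calcium sensor named after the hippocampus, averaged 28140 ± 2433 in hippocampus and 13910 ± 1101 in neocortex (1.01 ± 0.06, adjusted p = 2.27e-12). The kinase subunit Camk2b averaged 20140 ± 1374 in hippocampus and 12240 ± 429 in neocortex (0.72 ± 0.04, adjusted p = 1e-11), and no array overlapped for either. Camk2a, its partner, had a negative value (log2 difference -0.68) but did not pass the test, which does not show equal levels. In the calcium list 6 of 28 were higher (21.4%, against 9.05% of all probe sets) and 10 lower (35.7%, against 8.06%). In the list of cyclic nucleotide, phospholipid and RGS signalling 9 of 47 were higher (19.1%, against 9.05%) and 16 lower (34%, against 8.06%). Rasgrf1, a Ras activator driven by calcium, averaged 5059 ± 718 in hippocampus and 2876 ± 448 in neocortex (0.81 ± 0.09, adjusted p = 6.82e-07), opposite to its relative Rasgrf2. Prkcd, a protein kinase C isoform that also marks thalamus, averaged 1556 ± 192 in hippocampus and 878 ± 244 in neocortex (0.83 ± 0.11, adjusted p = 4.41e-06). Rgs4, an inhibitor of G-protein signalling, averaged 629 ± 114 in hippocampus and 1643 ± 240.4 in neocortex (-1.35 ± 0.11, adjusted p = 2.17e-09), and Prkacb, a catalytic subunit of protein kinase A, averaged 8369 ± 535 in hippocampus and 13970 ± 849 in neocortex (-0.74 ± 0.04, adjusted p = 1.45e-11). Within the RGS family Rgs14 rose and Rgs6 and Rgs4 fell.

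Adhesion and guidance genes were called in both directions. Of 36 tested adhesion genes 7 were higher (19.4%, against 9.05% of all probe sets), led by the desmosomal Dsp and Pkp2. Lower were 4 (11.1%), near the 8.06% of all probe sets. Pkp4 averaged 7536 ± 482 in hippocampus and 5344 ± 378 in neocortex (0.49 ± 0.05, adjusted p = 9.17e-08), and Jup, a further protein of desmosomes, was lower with all arrays (-0.84 ± 0.21, adjusted p = 0.00585) but not called without replicates 3, 4, 6 and 7. The integrin subunit Itgav averaged 2385 ± 385 in hippocampus and 4045 ± 497 in neocortex (-0.76 ± 0.09, adjusted p = 1.09e-06). Of 34 guidance genes 8 were higher (23.5%, against 9.05%) and 8 lower (23.5%, against 8.06%). Neuropilin 1 (Nrp1), a receptor for class 3 semaphorins and VEGF, averaged 3752 ± 276 in hippocampus and 1182 ± 97.0 in neocortex (1.64 ± 0.06, adjusted p = 1.71e-15). The ephrin receptors Epha7 (1560.3 to 3167 in hippocampus (median 2514) and 538 to 1009 in neocortex (median 672); 1.75 ± 0.13, adjusted p = 7.19e-10) and Epha6 (1.20 ± 0.20) were higher, while Ephb6 (-0.92 ± 0.12, adjusted p = 2.13e-06) and Ephb3 (-0.95 ± 0.23) were lower. Among the ligands, Efnb3 was higher (0.84 ± 0.07), and Sema3e (0.96 ± 0.14) was higher while Sema7a (-0.82 ± 0.12) and Sema4a (-0.76 ± 0.09) were lower. Of 29 Wnt pathway genes 1 was higher (3.45%, against 9.05%) and 5 lower (17.2%, against 8.06%). The ligand Wnt10a averaged 375 ± 32.8 in hippocampus and 762 ± 86.6 in neocortex (-0.96 ± 0.09, adjusted p = 1.2e-08).

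Immediate early genes, which neurons switch on within minutes of activity, were, where called, lower in hippocampus with a single exception. Of 25 tested, 12 were called lower (48%, against 8.06% of all probe sets) and 1 higher (4%), with a median of -0.45. Zinc-finger factor Egr1 averaged 3690 ± 1296 in hippocampus and 10220 ± 2368 in neocortex (-1.50 ± 0.17, adjusted p = 6.78e-07), and Egr2 read 187 to 969 in hippocampus (median 340.4) and 424 to 2303 in neocortex (median 1617) (-1.74 ± 0.30, adjusted p = 0.000184). Fos, a component of the AP-1 factor, read 356 to 2643 in hippocampus (median 877) and 1052 to 5739 in neocortex (median 2833) (-1.49 ± 0.32, adjusted p = 0.00146). The tissues overlapped for Egr2 and Fos. In both tissues Fos was highest on replicates 3, 4 and 10, at 2642.7, 2561.7 and 1652.3 in hippocampus and 5738.9, 5404.1 and 4202.4 in neocortex. It was lowest on replicates 6 and 7, at 356.5 and 439.5 in hippocampus and 1051.5 and 1124.8 in neocortex. Set beside the neocortex array of its own number, the hippocampus array was the lower for all 10 numbers. The labels do not say whether arrays of the same number come from the same mouse, so these are not taken as pairs. Fosb (-1.10 ± 0.17), the phosphatase Dusp1 (-0.98 ± 0.22), Klf10 (-0.94 ± 0.17) and Nr4a1 (-0.86 ± 0.27) were lower too. Jun, which pairs with Fos, was the exception: it read 1299.9 to 2216 in hippocampus (median 1944) and 755 to 1112 in neocortex (median 884) (1.02 ± 0.09, adjusted p = 9.27e-09), with no overlap.

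The promoters of Fos, Egr2 and Jun are shown because these genes of one family of responses differed in opposite directions. They are the 150 bases before an annotated start, from RefSeq on GRCm38.p6, and were picked after the values were seen. Capitals mark TGACG or its reverse complement CGTCA, which is 1 arm of the cyclic AMP response element TGACGTCA through which calcium and cyclic AMP act on such genes.
Fos, chr12:85473740-85473889, plus strand: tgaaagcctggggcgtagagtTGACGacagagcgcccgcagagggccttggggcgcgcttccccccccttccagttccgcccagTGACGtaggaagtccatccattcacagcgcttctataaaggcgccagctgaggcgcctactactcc
Egr2, chr10:67537719-67537868, plus strand: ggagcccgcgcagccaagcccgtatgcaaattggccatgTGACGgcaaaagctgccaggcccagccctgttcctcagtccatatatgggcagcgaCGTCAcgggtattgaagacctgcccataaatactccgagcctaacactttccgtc
Jun, chr4:95052223-95052372, minus strand: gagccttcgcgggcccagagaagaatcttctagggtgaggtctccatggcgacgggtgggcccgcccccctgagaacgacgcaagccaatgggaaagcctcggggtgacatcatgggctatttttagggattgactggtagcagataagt
The windows of Fos and Egr2 held 2 matches each and that of Jun held 0. Only exact copies were marked, and the Jun window holds tgacatca, which differs from TGACGTCA by 1 base. Egr2 has other listed starts, some with 0 matches, and the start shown is 1 of those with 2. In the 250 bases before a start, TGACG on either strand stood in 17.8% of 32851 promoters, and the whole element TGACGTCA, which contains it, in 1.55%. By gene the shares were 19.8% and 1.77%. Of the 12 lower immediate early genes 8 were matched to a promoter; 7 of these held TGACG (Fos, Fosb, Junb, Egr2, Nr4a1, Dusp1 and Rgs2) and 1, Dusp1, the whole element. The immediate early genes that were not called were not searched, so whether such matches go with the fall was not tested. A match is a description of letters and not a shown site.

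Genes of the synapse and the cytoskeleton were lower more often than higher. Of 39 synaptic vesicle and SNARE genes 10 were lower (25.6%, against 8.06% of all probe sets) and 3 higher (7.69%, against 9.05%). Their median was -0.09. Beside Stx1a, its partner Snap25 was lower by less, at 39280 ± 4863 in hippocampus and 51850 ± 6331 in neocortex (-0.40 ± 0.08, adjusted p = 0.000513), and Syt2, the fast calcium sensor of release, differed by -0.51 ± 0.09. Synapsin 2 (Syn2, 0.43 ± 0.07) and the fusion ATPase Nsf (0.29 ± 0.07) were higher. Among 12 postsynaptic scaffold genes 4 were lower (33.3%, against 8.06% of all probe sets) and 2 higher (16.7%, against 9.05%). Dlg1, a scaffold of glutamate receptors, averaged 3834 ± 436 in hippocampus and 6375 ± 863 in neocortex (-0.72 ± 0.08, adjusted p = 2.37e-07). The secreted pentraxins, which gather AMPA receptors, divided: Nptx1 averaged 4269 ± 1142 in hippocampus and 2989 ± 439 in neocortex (0.48 ± 0.12, adjusted p = 0.00667; not called without replicates 3, 4, 6 and 7) and Nptx2 averaged 560 ± 108 in hippocampus and 994 ± 173 in neocortex (-0.80 ± 0.11, adjusted p = 7.69e-06). Of 42 cytoskeleton genes 13 were lower (31%, against 8.06%) and 3 higher (7.14%, against 9.05%). The neurofilament subunit Nefm averaged 666 ± 312 in hippocampus and 1450 ± 330.2 in neocortex (-1.20 ± 0.22, adjusted p = 0.000385), and the 4 low hippocampus arrays named above read 319 to 364, against 614 to 1053 on the others. In neocortex the arrays of the same numbers were also low, at 1065.3 to 1119.3 against 1461.5 to 1846. Map4, a microtubule protein, averaged 2754 ± 320.3 in hippocampus and 1493 ± 141 in neocortex (0.87 ± 0.07, adjusted p = 2.28e-09), and thymosin beta 4 (Tmsb4x), which binds free actin, averaged 20610 ± 1665 in hippocampus and 14380 ± 1168 in neocortex (0.52 ± 0.05, adjusted p = 1.45e-07). A dimmer Map4 probe set was not called (-0.15 ± 0.27, adjusted p = 0.773).

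Steroid, retinoid and thyroid hormone genes were mixed. Of 21 tested, 6 were higher (28.6%, against 9.05% of all probe sets) and 5 lower (23.8%, against 8.06%). Beside Crym and Hsd11b1, the retinoic acid enzyme Aldh1a1 averaged 2747 ± 335 in hippocampus and 1597 ± 206 in neocortex (0.77 ± 0.06, adjusted p = 3.31e-09). Crym binds thyroid hormone and was higher, and Dio2, which activates it, was lower. The clock gene Nr1d2 was lower by a small amount (-0.38 ± 0.07), as was the retinol carrier Rbp4 (-0.51 ± 0.13). The glucocorticoid receptor Nr3c1 was not called (log2 difference -0.20).

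Respiratory chain and ribosomal protein genes that were called were nearly all higher, by small amounts, and most of these calls were lost without replicates 3, 4, 6 and 7. Of 66 tested respiratory chain genes 11 were higher (16.7%, against 9.05% of all probe sets) and 1 lower (1.52%, against 8.06%). Their median was 0.11, and the called rises did not pass 0.37 on the log2 scale. Ndufv2 averaged 6872 ± 857 in hippocampus and 5578 ± 495 in neocortex (0.30 ± 0.06, adjusted p = 0.00182; not called without replicates 3, 4, 6 and 7). The exception was Cox6a2, the heart and muscle form of a cytochrome oxidase subunit, at 757 ± 161 in hippocampus and 1434 ± 204 in neocortex (-0.91 ± 0.11, adjusted p = 1.12e-06), with no overlap. Of 28 ribosomal protein genes 9 were higher (32.1%, against 9.05%) and 0 lower, with a median of 0.13. Rps7 averaged 19270 ± 2065 in hippocampus and 16150 ± 1593 in neocortex (0.25 ± 0.04, adjusted p = 6.78e-05), and Rps4l gave the largest difference (0.69 ± 0.11, adjusted p = 6.78e-05). A dimmer Rps4l probe set was not called (-0.15 ± 0.21, adjusted p = 0.682). Mean levels of the ribosomal list ran from 12.08 to 12.33 in hippocampus and from 11.93 to 12.16 in neocortex, so that the tissues overlapped. Without replicates 3, 4, 6 and 7, 2 respiratory chain genes and 4 ribosomal protein genes were called higher.

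Other lists whose counts moved by over 1.5 times without replicates 3, 4, 6 and 7, from fewer arrays, were these. Called lower were 4 interneuron genes, 2 neuropeptide receptor genes, 2 Wnt genes, 2 adhesion genes, 2 astrocyte genes, 1 newborn-cell gene, 1 thalamic gene, 0 metabotropic receptor or Homer genes and 3 steroid hormone genes. Called higher were 2 interneuron genes, 1 neuropeptide gene, 2 sodium and calcium channel genes, 2 GABA receptor genes, 4 ionotropic glutamate receptor genes, 1 ependymal gene and 0 microglial genes. The dentate, Ammon's horn, upper-layer and deep-layer counts were the same.

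The receptors that the study's knockouts target were not called between the wild-type regions. S1pr2 read 374 to 962 in hippocampus (median 649.8) and 426 to 876 in neocortex (median 727) (-0.07 ± 0.15, adjusted p = 0.815), S1pr3 read 470.3 to 1129 in hippocampus (median 859.8) and 629 to 1077 in neocortex (median 847) (-0.07 ± 0.14, adjusted p = 0.794), and S1pr1 averaged 350.3 ± 100.2 in hippocampus and 359 ± 83.8 in neocortex (-0.05 ± 0.16, adjusted p = 0.881). The 95% intervals of the differences ran from -0.38 to 0.24, -0.37 to 0.23 and -0.38 to 0.28. Arrays labelled S1P2-KO still read 340.5 to 834.5 for S1pr2 in hippocampus and 348 to 825 in neocortex, and those labelled S1P3-KO read 451 to 552 and 501 to 1122 for S1pr3, so both overlapped wild-type. Where these probes lie relative to the deleted parts is not given, and they do not check the genotype labels.

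The regional differences returned in the knockout mice. On the arrays labelled S1P2-KO, 802 probe sets were higher in hippocampus (9.4%) and 765 lower (8.96%). Of the 772 probe sets higher in wild-type hippocampus, 761 had the same sign in S1P2-KO mice (98.6%) and 542 were called the same way; of the 688 lower, 672 had the same sign (97.7%) and 520 were called. The same sign was found for 74.7% of all tested probe sets. The calls shared by both genotypes were 72.7% of the wild-type calls and 67.8% of the S1P2-KO calls, and 0 were called in opposite directions. All 81 and 88 probe sets that changed at least 2-fold kept their sign, and 77 and 79 of them were called. With 5 arrays a tissue, S1P3-KO mice gave 155 higher (1.82%) and 159 lower (1.86%), 3.68% in all, of which 67 rose (0.785%) and 88 fell (1.03%) at least 2-fold. Of the wild-type calls, 730 of 772 and 659 of 688 had the same sign there, and 143 and 134 were called. That is the same sign for 94.6% and 95.8%, against 70.8% of all tested probe sets, and the shared calls were 19% of the wild-type calls and 88.2% of the S1P3-KO calls. S1P3-KO hippocampus replicate 5 stood apart, with a 3' to 5' log2 ratio of 4.46 and a median signal of 299.6; the part of RNA quality was not tested. Without it, 216 probe sets were higher and 293 lower, 745 and 662 of the wild-type calls had the same sign, and 197 and 238 were called. Dsp differed by 3.04 in S1P2-KO and 3.13 in S1P3-KO, against 3.03 in wild-type, and Npy2r by 2.64 and 2.75, against 2.79. Mef2c differed by -3.06 and -4.33, against -3.22, and Jun by 1.05 and 0.85, against 1.02.

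**Figure D5:**
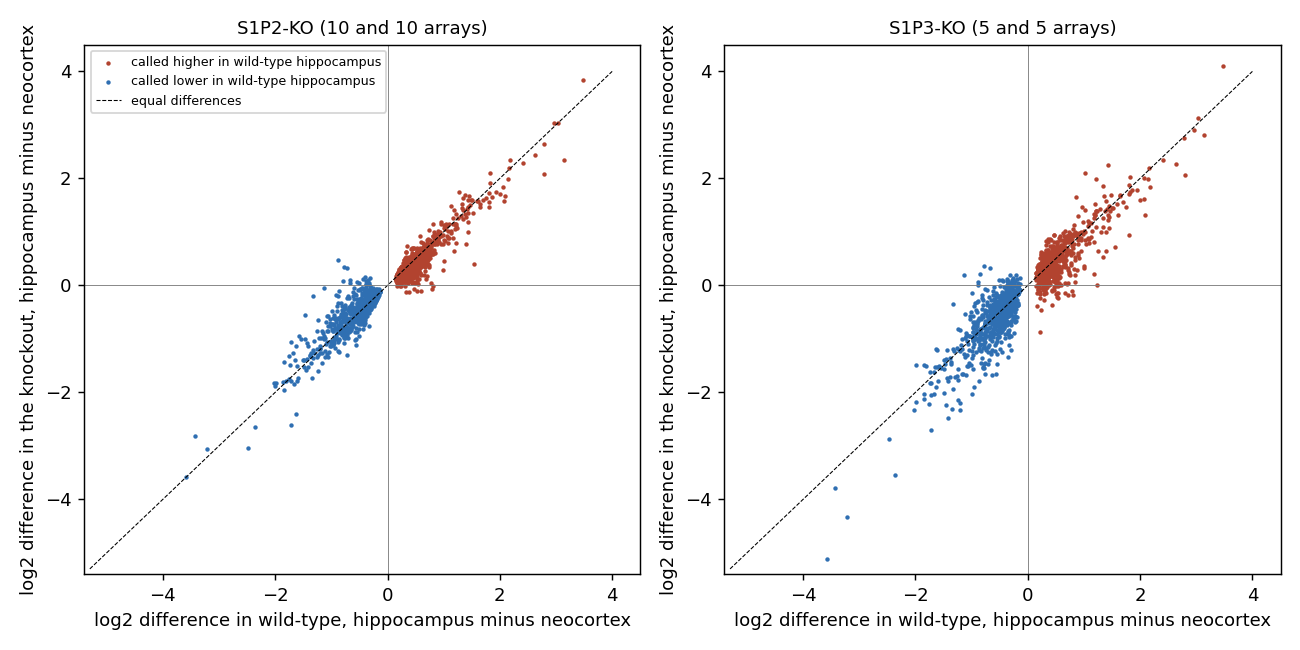
Log2 difference, hippocampus minus neocortex, of the 1460 probe sets called in wild-type mice (x axis) against the same difference in S1P2-KO mice (left) and S1P3-KO mice (right), with probe sets called higher in wild-type hippocampus in red and lower in blue. Most points share the wild-type sign, 98.6% of the red and 97.7% of the blue on the left.

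No gene's regional difference was shown to depend on sex or genotype. The interaction with sex gave 0 called probe sets and 379 at an unadjusted p below 0.05, and those with S1P2-KO and S1P3-KO gave 0 called and 222 and 438. The smallest p for sex was that of Ro60, an RNA-binding protein, whose regional difference was -0.92 in males and 0.11 in females (interaction -1.03 ± 0.22, adjusted p = 0.768). For S1P2-KO it was that of desmin (Des), 0.83 in S1P2-KO and -0.54 in wild-type (adjusted p = 1), and for S1P3-KO that of the retrieval receptor Kdelr1, -0.38 in S1P3-KO and 0.17 in wild-type (adjusted p = 0.875).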

How the data were processed

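RNA from whole tissue was labelled and hybridised to 1-colour arrays. The deposited values are linear MAS5 signal intensities, scaled by the authors so that every array's mean, trimmed by 2% at each end, was 1000.56 to 1000.66; MAS5 is named in the submitters' processing notes, and its version is not given in the sources used here. Of 12488 probe sets, 10833 had 1 gene symbol, 396 several and 1193 none here, and 10817 matched a RefSeq gene (GRCm38.p6). The 66 control probe sets were left out. Probe sets were tested where their mean log2 value over the 50 arrays passed the pooled 30th percentile, a signal of 132.6. A gene dim in 1 tissue could thus pass through the other. Kl and Gstm6 averaged under this signal in wild-type neocortex, and Rgs6 and Tnnc1 in wild-type hippocampus.

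Values were taken as log2(signal + 30.7), the added 30.7 being their pooled 10th percentile; this understates changes of dim genes. Tissues were compared with limma 3.58.1 in R 4.3.3 (lmFit, eBayes with trend, sex as covariate) over the 20 wild-type arrays, with Benjamini-Hochberg adjustment over all tested probe sets and a threshold of 0.05. Sexes and genotypes were compared through interaction terms. The steps were tested on simulated data. The p-values measure the spread between samples, and the number of arrays limits their precision. They treat the arrays as independent, which the labels do not settle for same-numbered arrays. A gene stands by its probe set of highest mean. Dimmer probe sets were not called for Ndufv2 (log2 difference 0), Penk (-0.37), Foxp1 (-0.34), Ephb6 (-0.30) and Man1a (0.73). The same held for dimmer probe sets of Tyro3 (-0.51) and Cx3cl1 (-0.51).

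The genes named are the 20 with the largest rise and the 20 with the largest fall among called genes with separated arrays, up to 4 called members of each of 39 lists in each direction, and S1pr1, S1pr2 and S1pr3. For each interaction the 2 genes of smallest p were computed, since none was called. Bright genes that differed little, which the rule also allowed, were not named. Other list members were named to say what a list holds, after their values were seen. Members and lists were chosen with earlier results of these data known. Alternatives were the pseudocount, the filter, the scaling, the arrays in the fit, array weights, the 3' to 5' ratio as covariate, the sex term, the mean of a gene's probe sets, a block by replicate number and leaving out arrays. The labels give no scan date or batch.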

Additional observations from a re-analysis of the deposited data

Results flagged for a closer look

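For 24 of 468 values screened, 1 array lay apart from the other 9 of its tissue by Dixon's criterion, against 23.4 that chance at 1 in 20 would give. In hippocampus there were 10 and in neocortex 14. Explanations were not tested.

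In hippocampus, replicate 4 had a 3' to 5' log2 ratio of 1.2, with 0.75 next. The same array was high for Rgs6, at 212.8 with 105.9 next, and low for Gria3, at 522.8 with 781 next, and for Sema4a, at 1041.9 with 1556.5 next. Replicate 3 was low for Npr3, at 299.2 with 419.6 next, for Cacna1g, at 131.6 with 405.6 next, and for Htr1a, at 164.1 with 347 next. Igfbp6 was low on replicate 1, at 498.4 with 865.4 next, and Tac1 on replicate 2, at 139.5 with 219.6 next. The mean log2 level of neuropeptides and granins was low on replicate 5, at 9.944 with 10.155 next.

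In neocortex, replicate 4 was high for Fhod3, at 1798.2 with 1425.3 next. It was low for Sema7a, at 1314.4 with 1918.4 next, for Nr2f2, at 420 with 577.2 next, and for Rbp4, at 416.6 with 619.4 next. Replicate 7 was high for Kl, at 108.3 with 51.3 next, and low for Fmod, at 167.5 with 420.6 next, and for Syt17, at 688.1 with 1094.4 next. Replicate 3 was high for Lmo1, at 1088.9 with 757.6 next, and low for Htr5b, at 92 with 189.9 next. Prkcd was high on replicate 6, at 1499.3 with 933.5 next, Pdgfb on replicate 9, at 1066.1 with 763.1 next, and Cacna2d3 on replicate 2, at 3345.6 with 2959.2 next. Pkp2 was low on replicate 10, at 128.6 with 289.9 next. The mean log2 level of steroid, retinoid and thyroid hormone genes was high on replicate 9, at 10.173 with 10.067 next.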

How the results depend on the processing

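Under the other pseudocounts, filters, scalings and model terms, with all wild-type arrays kept, wild-type counts ran from 638 (3' to 5' ratio as covariate) to 809 higher and from 575 (all 50 arrays in the fit) to 779 lower, and 0 wild-type calls turned round. The replicate block gave the 809 and 779, with 1365 of 1460 calls kept; replicate numbers were not taken as pairs, since deviations of same-numbered arrays over all probe sets correlated at -0.06 to 0.19, above 0.1 in 5 of 10 and not in all. Leaving out single arrays gave 656 to 875 higher, with 875 without hippocampus replicate 5, and 602 to 802 lower. Chosen after seeing the data, leaving out replicates 3, 4, 6 and 7 of both tissues gave 460 higher and 506 lower from fewer samples. Of the 186 called probe sets of genes that the naming rule allowed, not all of them named here, 149 were still called. In S1P3-KO mice, leaving out single arrays gave 88 to 216 higher and 80 to 293 lower, with 88 and 80 without neocortex replicate 3, 101 and 85 without neocortex replicate 4, 100 and 80 without neocortex replicate 5, 102 lower without hippocampus replicate 1 and 216 higher and 293 lower without hippocampus replicate 5, which stood apart in RNA quality. The replicate block gave 104 lower in S1P3-KO mice; the cause was not tested. The small S1P receptor differences changed sign: S1pr3 ran from -0.126 to 0.015 on leaving out 1 array, S1pr2 from -0.138 to 0.014 on leaving out 1 array and 0.031 without replicates 3 and 4, and S1pr1 from -0.129 to 0.017 on leaving out 1 array, 0.015 with the 3' to 5' ratio as covariate and 0 without replicates 3 and 4. The interaction terms gave 0 calls by limma under the alternatives run. Signal over background sets a further limit: genes under the filter, such as Prox1, were not tested.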
